A study of Mus musculus with 32 samples.

Results

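The comparison was between spinal cord libraries of CHMP2Bintron5 transgenic mice at 10-12 months and at 1.5 months of age. It was defined by the genotype and age in the sample labels, which gave 11 of the 32 libraries of the series, 6 at 10-12 months and 5 at 1.5 months. All were of a mixed background of the strains FVB/N, C57BL/6 and DBA/2, and the transgenic samples were labelled as carrying 12 copies of CHMP2Bintron5. The other libraries were CHMP2Bintron5 cord at 6 months, and cord of non-transgenic controls of the same background at each of the 3 ages. Control cord at 10-12 and 1.5 months (12 libraries) is set beside the transgenic cord below, since the same months pass in both. The sources used here do not give the promoter of the transgene, the number of founder lines or the spinal level of the tissue. The design text counts 4 CHMP2Bintron5 samples at the youngest age and gives the oldest as 12 months, and the sample labels were followed. The labels do not say that each library came from a different animal, so the p-values measure the spread between these samples.

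CHMP2B belongs to ESCRT-III, the protein complex that pinches membranes closed at endosomes on the way to the lysosome. CHMP2Bintron5 is a C-terminally truncated form of the protein that is linked to frontotemporal dementia and to motor neuron disease. In the cord of a growing mouse, oligodendrocytes and, in the nerve roots, Schwann cells build myelin, a membrane rich in cholesterol and galactolipids, and this synthesis slows once the sheaths are laid down. Microglia, the resident macrophages of the cord, take on a further set of genes in disease and around dying cells, often called the disease-associated state. Type I interferon induces a separate set of antiviral genes in most cell types.

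Total counts ran from 31565428 to 64144016 in the 11 libraries. Values below are CPM, that is, counts relative to the TMM-adjusted library size, and are not divided by gene length, so levels are compared for 1 gene across libraries and not between genes. The labelled tissue was checked on markers: Hoxc8, a gene of the trunk cord, lay between 23.2 and 32.7 CPM, Slc6a5, the glycine transporter of inhibitory cord neurons, between 266 and 442 CPM, and Mbp, a myelin protein, between 7069 and 13280 CPM. Scn10a of sensory ganglia stayed at or under 0.233 CPM and Adipoq of fat at or under 0.278 CPM. Replicate 3 of each age held skeletal muscle transcripts, with a summed level of 14 muscle genes of 550 CPM at 1.5 months and 896 CPM at 10-12 months against 96.2 to 175 CPM in the other 9. Within the youngest group, replicate 4 had a GC slope (the slope of a library's log2 level on GC content, per 10% GC) of 0.376 against -0.286 to -0.082 in the other 4, and slopes at 10-12 months ran from 0.003 to 0.46. The mean number of genes detected was 24940 ± 356 (SD, n = 6) at 10-12 months and 25470 ± 315 (SD, n = 5) at 1.5 months (exact permutation test, two-sided, p = 0.0368, adjusted p = 0.147 over 4 library measures).

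Mouse Chmp2b, the endogenous counterpart of the transgene (GRCm38 chromosome 16, 65539128 to 65562726, minus strand, protein-coding), was at 83.1, 89.98, 91.0, 65.0 and 79.6 CPM in replicates 1 to 5 at 1.5 months and at 54.3 to 75.7 CPM (median 68.1 CPM) at 10-12 months. The ranges overlapped, and the log2 fold change was -0.29 ± 0.13 (SE, edgeR quasi-likelihood test, adjusted p = 0.172). Counts on the mouse gene do not separate endogenous from any transgene-derived reads, so they do not check the transgene. Thy1, a surface protein of neurons, had a log2 fold change of 0.09 ± 0.11 (adjusted p = 0.642), and Chrna2, a nicotinic receptor subunit, 0.09 ± 0.17 (adjusted p = 0.765), and both stayed within overlapping ranges at the 2 ages. The sign of these small values was not stable: Thy1 was at -0.06 with an offset for GC content and length, and Chrna2 reached -0.01 when a library was left out.

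The transgenic cord at 10-12 months differed from that at 1.5 months in genes of sterol synthesis, myelin and matrix, whose called members were all lower. Called interferon-induced genes were lower too, and 5 of 7 called genes of disease-associated microglia. Genes that rose included Plin4, Inmt, C4b and Igha. In the edgeR quasi-likelihood test on 20015 genes, 1318 genes (6.59%) passed an adjusted p of 0.05, and such genes are called below. Of these, 624 (3.12%) were higher and 694 (3.47%) lower at 10-12 months, with 97 and 94 past a 2-fold change, and the median log2 fold change of all tested genes was 0.01. This median rose with the GC content of genes, from -0.16 in the lowest decile to 0.31 in the highest (-0.02 and 0.21 in controls). List medians below are not adjusted for GC content unless stated. The CPM ranges of the groups did not overlap for 451 genes with higher values at 10-12 months (2.25%) and 433 with lower values (2.16%). When each of the 11 libraries was left out in turn, 448 of the 1318 genes were called in every fit, 173 higher and 275 lower. The total was sensitive to single libraries: it was 530 without replicate 2 of the 1.5-month group, 570 without replicate 3, and 4133 without replicate 4, the library with the high GC slope, where 58.4% of calls were higher against 47.3% with all libraries. It was 828 without replicate 4 at 10-12 months, and 440 without both muscle-containing libraries. The genes described below were called in all 11 of these fits unless stated otherwise.

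The list of cholesterol synthesis had the largest share of called members among the 45 lists. Of 25 genes tested, 19 were called lower and none higher, against 3.47% of all genes called lower, and 16 of the 19 were called in each leave-one-out fit. The median log2 fold change of the list was -0.53. Without both muscle-containing libraries 15 members were called.

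Hmgcs1, which makes the HMG-CoA from which the pathway sets out (GRCm38 chromosome 13, 119690379 to 119708260, plus strand, protein-coding), was at 445, 587, 626 and 421 CPM in replicates 1, 2, 3 and 5 at 1.5 months, with replicate 4 between replicates 1 and 2, and at 219 to 274 CPM (median 262 CPM) at 10-12 months. Every old library lay below every young one, of which replicates 2 and 3 were the highest (log2 fold change -1.02 ± 0.11, SE; adjusted p = 1.12e-06). Cyp51, which demethylates lanosterol (GRCm38 chromosome 5, 4081145 to 4104746, minus strand, protein-coding), was at 154, 182, 190.4, 142 and 139 CPM at 1.5 months and at 87.4 to 98.6 CPM (median 91.0 CPM) at 10-12 months. Its groups did not overlap either, and the same 2 young replicates were on top (log2 fold change -0.82 ± 0.09; adjusted p = 8.1e-07). Msmo1, a sterol oxidase of the steps that follow, had a log2 fold change of -0.88 ± 0.10 (adjusted p = 9.01e-07).

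Genes of this pathway are induced by SREBP transcription factors, which bind sterol regulatory elements, and CACCCCAC is the core of one such element. In the 250 bases before the transcription start in RefSeq, searched on both strands, this motif was found in 2.98% of 27025 mouse genes and in 3.42% of the 13612 tested genes with an entry. Promoter entries were present for 17 of the 25 cholesterol genes, 2 of which held it, Hmgcs1 and Acat2, both called lower. The match of Hmgcs1 is printed because the gene was among those with the largest fall of the list. It begins 136 bases before the start, at chr13:119690191-119690246 on the plus strand of GRCm38.p6, and capitals mark the motif.
Hmgcs1: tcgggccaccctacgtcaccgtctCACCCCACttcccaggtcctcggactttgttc

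Fatty acid synthesis was split. Of 19 genes tested, 7 were called lower and 2 higher, with a list median of -0.20, and 5 of the lower calls and none of the higher ones held in each leave-one-out fit. Acss2, which makes acetyl-CoA from acetate, was at 114, 123, 123, 105 and 105 CPM at 1.5 months and at 74.9 to 86.9 CPM (median 81.7 CPM) at 10-12 months. The groups did not overlap (log2 fold change -0.48 ± 0.06; adjusted p = 2.23e-06). Elovl6 and Elovl7, which lengthen fatty acids, had log2 fold changes of -0.70 ± 0.12 and -0.79 ± 0.14 (adjusted p = 0.000466 and 0.000541), and Hacd1, a dehydratase of the same elongation cycle, one of -0.55 ± 0.09 (adjusted p = 0.000464).

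Many oligodendrocyte and myelin genes were lower in the old transgenic cord, but Mbp was not called. Of 18 tested, 10 were called lower, none higher, and 9 held in each leave-one-out fit, with a list median of -0.51. Mal, a proteolipid of compact myelin (GRCm38 chromosome 2, 127633226 to 127656695, minus strand, protein-coding), was at 846, 1072, 1165, 807 and 802 CPM at 1.5 months and at 389 to 481 CPM (median 436 CPM) at 10-12 months. Old libraries were all below young ones, by 2.14-fold (log2 fold change -1.10 ± 0.11; adjusted p = 1.54e-07).

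Mog, a glycoprotein of the outer myelin surface (GRCm38 chromosome 17, 37010743 to 37023398, minus strand, protein-coding), was at 357, 436, 421, 324 and 304 CPM at 1.5 months and at 178 to 225 CPM (median 182 CPM) at 10-12 months, again without overlap, since the highest old library, replicate 2, was under the lowest young one. Its log2 fold change was -0.97 ± 0.10 (adjusted p = 5.18e-07). Ugt8a, the enzyme that makes the galactolipids of myelin (GRCm38 chromosome 3, 125865271 to 125938619, minus strand, protein-coding), was at 306, 472, 502, 274 and 375 CPM at 1.5 months and at 94.8 to 179 CPM (median 127 CPM) at 10-12 months, 2.91-fold lower with separate groups (log2 fold change -1.54 ± 0.18; adjusted p = 1.97e-06). Mbp, chosen after its values were seen, was not called: it was at 7904, 8567, 9230, 13280 and 7943 CPM at 1.5 months and at 7069 to 10330 CPM (median 8236 CPM) at 10-12 months. Replicate 4 at 1.5 months was the highest library, the ranges overlapped and the log2 fold change was -0.15 ± 0.15 (adjusted p = 0.555).

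Among 16 genes of precursors and new oligodendrocytes, 2 were called lower and none higher (list median -0.14). Bcas1, a marker of oligodendrocytes starting to myelinate, had a log2 fold change of -0.48 ± 0.11 (adjusted p = 0.00508). Gpr17, a receptor of committed precursors, had one of -0.64 ± 0.17 (adjusted p = 0.0223), and its call was lost without replicate 2 or 3 at 1.5 months or replicate 6 at 10-12 months.

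Genes of peripheral myelin and collagen were lower as well. Pmp22, a membrane protein of the Schwann cell sheath (GRCm38 chromosome 11, 63128982 to 63159547, plus strand, protein-coding), was at 1142, 2224, 2052, 2103 and 1882 CPM at 1.5 months and at 604 to 826 CPM (median 761 CPM) at 10-12 months. The groups did not overlap, with young replicate 1 nearest to the old libraries (log2 fold change -1.35 ± 0.18; adjusted p = 2.27e-05). Pmp2, a fatty-acid-binding protein of Schwann cells, was at 1.88, 4.16, 6.18, 2.76 and 3.94 CPM at 1.5 months and at 0.123 to 0.837 CPM (median 0.453 CPM) at 10-12 months, the lowest log2 fold change among the genes chosen by size (-2.92 ± 0.45; adjusted p = 0.000123). Of 13 Schwann cell genes tested, 3 were called lower, among them Pmp22 and Mal, and 1 higher, and the list median was 0.26, or -0.13 with the offset for GC content and length.

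Of 23 fibrillar collagen and matrix genes, 9 were called lower and none higher (list median -0.26), and 6 held in each leave-one-out fit. Col3a1, a fibrillar collagen (GRCm38 chromosome 1, 45311538 to 45349706, plus strand, protein-coding), was at 49.5, 129, 104, 96.8 and 93.0 CPM at 1.5 months and at 20.9 to 34.7 CPM (median 29.7 CPM) at 10-12 months. Groups were separate, young replicate 1 was again the lowest of its age, and the level was 3.25-fold lower (log2 fold change -1.70 ± 0.23; adjusted p = 1.63e-05). Col1a2, another fibrillar collagen, was 2.01-fold lower, Col4a1, a basement membrane collagen, 1.56-fold, and Loxl2, which crosslinks collagen, 1.75-fold (adjusted p = 0.00107, 0.00346 and 2.61e-05). Summed levels of the 13 Schwann cell genes were 4055 to 7823 CPM at 1.5 months and 2405 to 3421 CPM at 10-12 months, and those of the meningeal and fibroblast list 881 to 1913 and 870 to 1640 CPM. In bulk tissue, fewer cells of a type and less RNA per cell cannot be told apart, and this holds for every group of genes here. How much nerve root or meninges each sample held was not tested.

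**Figure D1:**
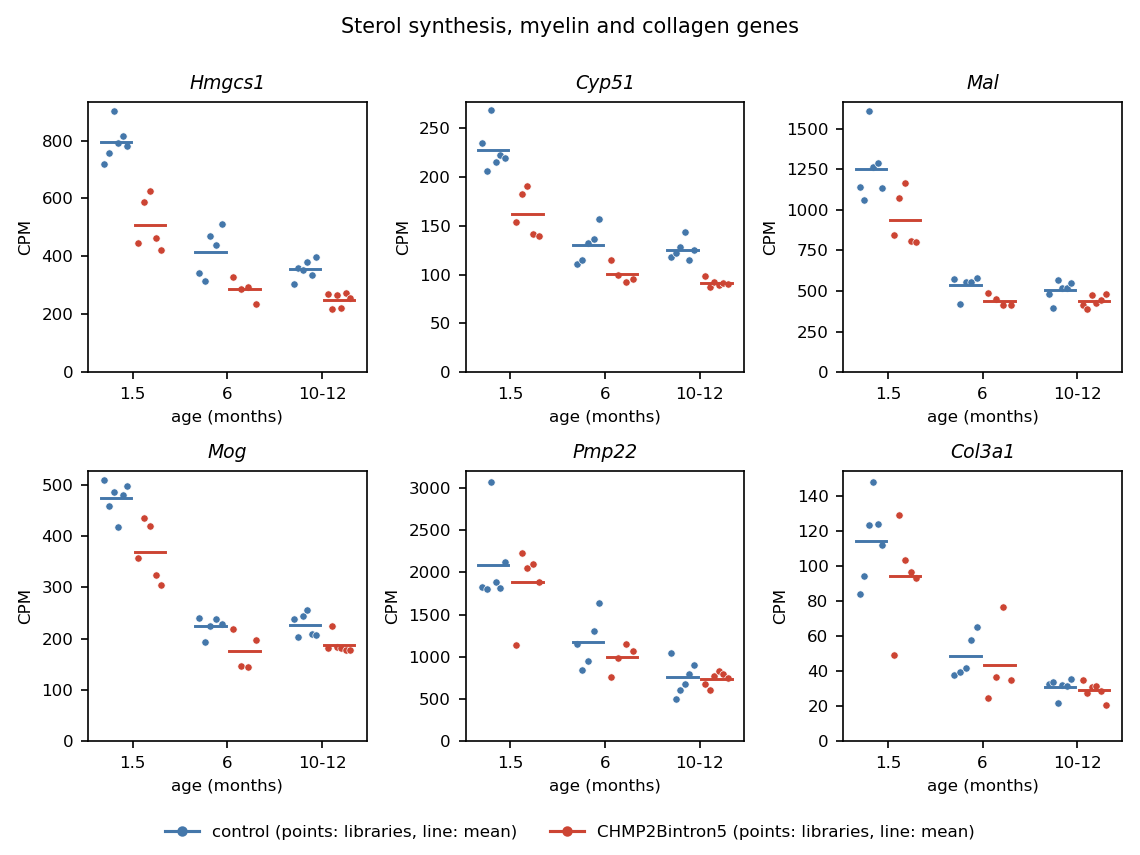
CPM of Hmgcs1, Cyp51, Mal, Mog, Pmp22 and Col3a1 (vertical axes, from 0) against age in months (horizontal), with 1 point per library and a line at the group mean, for control (blue) and CHMP2Bintron5 (red). In each panel the 6 red points at 10-12 months lie below the 5 red points at 1.5 months, as for Cyp51 with 87.4 to 98.6 against 139 to 190.4 CPM, and the control points take the same direction.

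Other genes of the young cord were lower too. Fabp7, a lipid-binding protein of immature glia, was at 76.0, 119.5, 97.6, 79.3 and 119 CPM at 1.5 months and at 29.8 to 48.0 CPM (median 34.8 CPM) at 10-12 months, with separate groups (log2 fold change -1.40 ± 0.15; adjusted p = 9.01e-07). Ncan, a proteoglycan of the perineuronal matrix, had a log2 fold change of -0.81 ± 0.09 and Nrep, which is expressed in growing neurons, -0.72 ± 0.09 (adjusted p = 9.01e-07 and 2.4e-06). Nrep does not stand for its list: of 18 genes of immature neurons and axon growth 1 was called higher and 2 lower. The median of that list was -0.03, with 8 members positive and 10 negative. Mfap4, a microfibril protein, had one of -1.74 ± 0.27 (adjusted p = 0.000149). Of 26 cell cycle genes 1 (Cdk1) was called lower and none higher, with a list median of -0.24. Over all genes 3.47% were called lower, so this count does not set the list apart. Cdk1 was called in 4 of the 11 leave-one-out fits.

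Microglial genes split into members that were lower at 10-12 months and members that were higher. Of 24 genes of the disease-associated state, 5 were called lower and 2 higher, with a list median of -0.28, and 4 lower calls and 1 higher held in each leave-one-out fit. Of 16 homeostatic genes 1 was called lower (Fcrls) and 1 higher (Tmem119), with a list median of -0.14. Shares over all genes were 3.47% lower and 3.12% higher, so the homeostatic counts do not set that list apart. The summed level of the homeostatic list was 388 to 465 CPM at 1.5 months and 376 to 421 CPM at 10-12 months.

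Fcrls, an Fc receptor-like protein found in mouse microglia (GRCm38 chromosome 3, 87250758 to 87263738, minus strand, protein-coding), was at 6.97, 11.2, 9.30, 7.75 and 8.41 CPM in replicates 1 to 5 at 1.5 months and at 0.972 to 2.71 CPM (median 1.72 CPM) at 10-12 months. The highest old library was well under the lowest young one, and the level was 4.83-fold lower (log2 fold change -2.27 ± 0.22; adjusted p = 1.36e-07). Itgax, the CD11c integrin subunit (GRCm38 chromosome 7, 128129547 to 128150657, plus strand, protein-coding), was at 6.41, 11, 12.0, 5.21 and 5.54 CPM at 1.5 months and at 1.76 to 3.38 CPM (median 2.95 CPM) at 10-12 months. Replicates 2 and 3 were the highest young libraries and the groups were separate (log2 fold change -1.51 ± 0.35; adjusted p = 0.00817).

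Clec7a, the beta-glucan receptor dectin-1 (GRCm38 chromosome 6, 129461591 to 129472779, minus strand, annotated as a polymorphic pseudogene), was at 8.46, 12.3, 11.7, 4.53 and 8.43 CPM at 1.5 months and at 3.15 to 4.42 CPM (median 4.04 CPM) at 10-12 months. Young replicate 4 lay only just above the old libraries (log2 fold change -1.22 ± 0.27; adjusted p = 0.00646). Cst7, an inhibitor of lysosomal proteases, was at 2.44, 3.40, 3.53, 2.1 and 2.20 CPM at 1.5 months and at 0.499 to 0.973 CPM (median 0.692 CPM) at 10-12 months, without overlap (log2 fold change -1.88 ± 0.47; adjusted p = 0.0137). Ccl6 and Ccl4 are chemokines that attract leukocytes. They had log2 fold changes of -0.94 ± 0.19 and -1.24 ± 0.30 (adjusted p = 0.00346 and 0.0126), while the related Ccl3 (-1.31 ± 0.38; adjusted p = 0.0336) kept its call in 3 of the 11 leave-one-out fits.

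Higher at 10-12 months were Gpnmb and Lgals3. Gpnmb, a membrane glycoprotein of macrophages loaded with lipid (GRCm38 chromosome 6, 49036546 to 49070929, plus strand, protein-coding), was at 4.86, 2.03, 0.848, 1.62 and 0.810 CPM at 1.5 months and at 3.70 to 12.9 CPM (median 7.85 CPM) at 10-12 months, 3.94-fold higher (log2 fold change 1.98 ± 0.37; adjusted p = 0.00118). Young replicate 1 overlapped the lowest old library, replicate 5. Lgals3, galectin-3, had a log2 fold change of 0.75 ± 0.20 (adjusted p = 0.0212) and was called in 7 of the 11 leave-one-out fits. Tmem119, a surface marker of resident microglia, had one of 0.72 ± 0.16 (adjusted p = 0.00755), with young replicate 4 at 18.6 CPM inside the old range of 16.6 to 24.1 CPM.

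Other well-known microglial genes, chosen after their values were seen, were not called. Trem2, a lipid receptor of microglia, had a log2 fold change of -0.33 ± 0.16 (adjusted p = 0.182), its adaptor Tyrobp -0.52 ± 0.18 (adjusted p = 0.0787), the fractalkine receptor Cx3cr1 -0.31 ± 0.11 (adjusted p = 0.0927) and the purinergic receptor P2ry12 0.21 ± 0.15 (adjusted p = 0.38). Without both muscle-containing libraries 2 members of the disease-associated list were called lower and 1 higher. Itgax, Cst7 and Ccl4 then had adjusted p of 0.0582, 0.0762 and 0.0562, and Clec7a and Ccl6 of 0.0446 and 0.0381. For Ccl3 and Lgals3 it was 0.077 and 0.092.

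**Figure D2:**
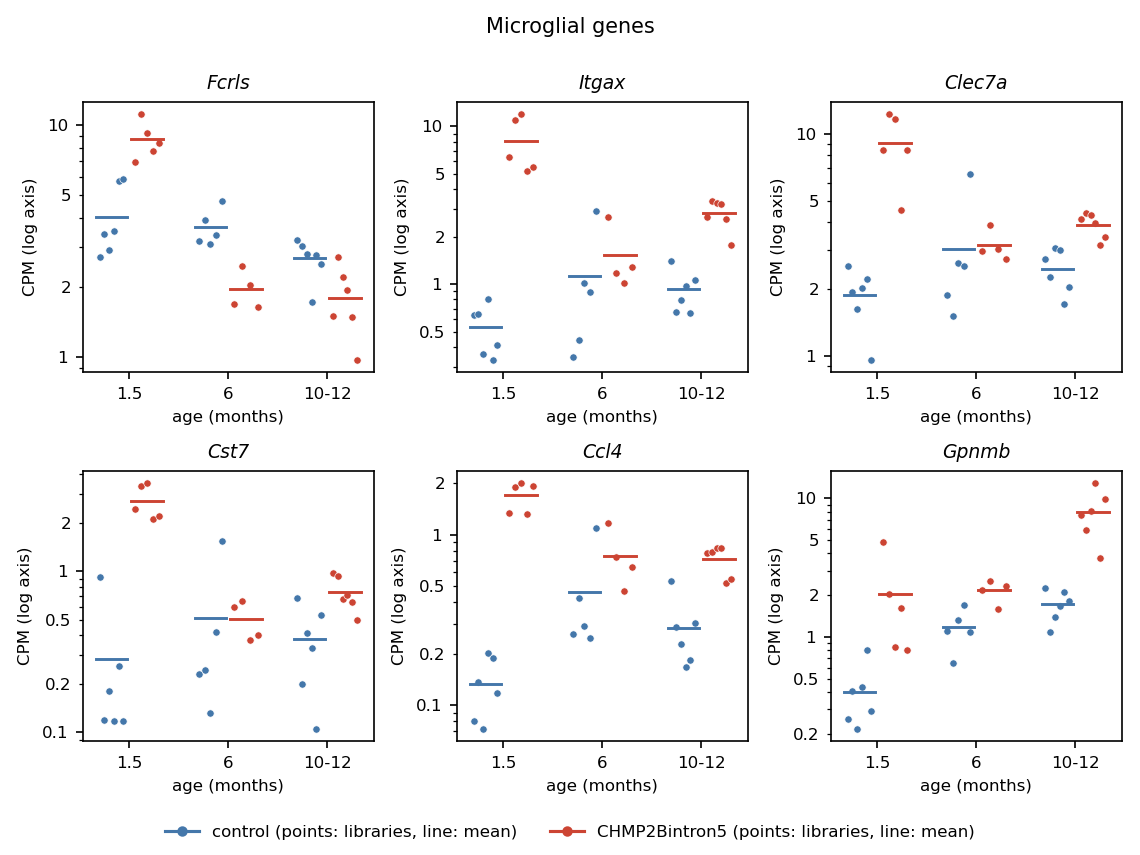
CPM on a log axis of Fcrls, Itgax, Clec7a, Cst7, Ccl4 and Gpnmb against age in months, with 1 point per library and a line at the group mean, for control (blue) and CHMP2Bintron5 (red). Red points of the first 5 genes are lower at 10-12 than at 1.5 months, as for Itgax with 1.76 to 3.38 against 5.21 to 12.0 CPM. Those of Gpnmb are higher. Red means of Itgax, Clec7a and Cst7 were lowest at 6 months (1.54, 3.16 and 0.508 CPM, against 2.81, 3.90 and 0.740 CPM at 10-12 months). None of these 3 was called between those 2 ages. Red means of Fcrls and Ccl4 were lowest at 10-12 months.

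Interferon-induced genes were lower at 10-12 months. Of 28 tested, 11 were called lower and none higher, with a list median of -0.52, and 8 held in each leave-one-out fit. Before the values, the promoters of 4 of them are shown, because factors activated by interferon bind an element built on a repeat of GAAA. The motif GAAANNGAAA was searched in the 250 bases before the start on both strands, counting overlapping matches. It was found in 3.46% of 27025 genes in RefSeq, in 3.29% of the 13612 tested genes with an entry, and in 11 of the 20 interferon genes with an entry. Of the 7 called genes with an entry 4 held it, and they were chosen for this match. Capitals mark the motif, read from 5′ to 3′ on the strand of the gene, and all 4 genes are on the minus strand. The stretches are chr4:156200851-156200920 for Isg15, with 3 overlapping matches, chr5:120907526-120907569 for Oas1a, with 2, chr12:26456539-26456596 for Rsad2 and chr7:104465196-104465253 for Trim30a in GRCm38.p6. In the last pair the motif is on the opposite strand and so appears as its reverse complement.
Isg15: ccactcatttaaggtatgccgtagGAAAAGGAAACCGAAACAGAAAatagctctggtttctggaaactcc
Oas1a: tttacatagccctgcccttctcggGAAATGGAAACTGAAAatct
Rsad2: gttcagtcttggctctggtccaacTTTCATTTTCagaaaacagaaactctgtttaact
Trim30a: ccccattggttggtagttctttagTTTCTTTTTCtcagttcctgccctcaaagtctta

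Isg15, a ubiquitin-like protein that is attached to others, was at 3.29, 6.01, 8.04, 3.82 and 4.24 CPM at 1.5 months and at 1.63 to 3.43 CPM (median 2.24 CPM) at 10-12 months. Replicates 2 and 3 were the highest young libraries and young replicate 1 overlapped the old range (log2 fold change -1.06 ± 0.22; adjusted p = 0.00323). Oas1a, which makes the oligoadenylates that switch on an RNA-cutting enzyme, had a log2 fold change of -1.31 ± 0.27 (adjusted p = 0.00282). Rsad2, or viperin, had one of -1.13 ± 0.31 (adjusted p = 0.0246; called in 7 of 11 leave-one-out fits) and Trim30a, a tripartite motif protein, -0.92 ± 0.24 (adjusted p = 0.0203; called in 8 of 11).

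Ifi44, the interferon gene with the largest fall of the list (GRCm38 chromosome 3, 151730922 to 151749960, minus strand, protein-coding), was at 1.18, 3.47, 5.15, 0.820 and 1.39 CPM in replicates 1 to 5 at 1.5 months and at 0.36 to 0.771 CPM (median 0.572 CPM) at 10-12 months. All old libraries were below all young ones, which themselves spread widely, with replicates 2 and 3 on top (log2 fold change -2.11 ± 0.34; adjusted p = 0.000196). Oas2, of the same family as Oas1a (GRCm38 chromosome 5, 120730333 to 120749853, minus strand, protein-coding), was at 3.64, 8.21, 7.43, 2.87 and 4.31 CPM at 1.5 months and at 1.76 to 2.52 CPM (median 2.09 CPM) at 10-12 months, with the same replicates on top and no overlap (log2 fold change -1.31 ± 0.25; adjusted p = 0.00141). Ifi27l2a had a log2 fold change of -1.51 ± 0.25 (adjusted p = 0.000281). Irf9, the DNA-binding partner in the complex that turns these genes on, had one of -0.52 ± 0.10 (adjusted p = 0.00107).

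The 2 young libraries with the highest interferon levels included the muscle-containing one. Without both muscle-containing libraries 5 of the 28 were called lower and the list median was -0.27, with adjusted p of 0.0544 for Isg15, 0.172 for Rsad2 and 0.179 for Trim30a, and over the 11 leave-one-out fits the number called ran from 8 to 15 with medians from -0.66 to -0.30. Members of the Oas, Ifi27 and Trim30 families have close copies, and the sources used here do not say how reads shared between copies were counted.

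Some genes of complement and antigen presentation were higher. C4b, complement component 4, which has a close copy in C4a (GRCm38 chromosome 17, 34728380 to 34743882, minus strand, protein-coding), was at 109, 83.3, 83.8, 123 and 110.3 CPM at 1.5 months and at 150.5 to 225 CPM (median 180.2 CPM) at 10-12 months. The old libraries were all above the young ones (log2 fold change 0.86 ± 0.14; adjusted p = 0.000167). Of 18 complement genes 2 were called higher and 1 lower, with a list median of -0.17. Of 17 genes of MHC class I presentation 4 were called higher and none lower (3.12% of all genes were called higher), with a list median of 0.46. None of the 4 held in each leave-one-out fit, where the number called ran from 0 to 7, and none was called without both muscle-containing libraries. H2-D1, a class I heavy chain with near-identical relatives, had a log2 fold change of 0.46 ± 0.13 (adjusted p = 0.0273), and Tap2, a subunit of the pump that loads their peptides, 1.02 ± 0.26 (adjusted p = 0.0177). None of 12 MHC class II genes was called. Il33, a cytokine that oligodendrocytes and astrocytes hold in their nuclei, had a log2 fold change of 0.61 ± 0.15 (adjusted p = 0.0104; 0.0694 without both muscle-containing libraries).

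Immunoglobulin transcripts changed in both directions. Igha, the heavy chain of IgA, was at 0.331, 0.297, 0.182, 0.987 and 0.324 CPM at 1.5 months and at 1.29 to 4.34 CPM (median 2.96 CPM) at 10-12 months, with young replicate 4 the nearest to the old libraries and no overlap (log2 fold change 2.75 ± 0.57; adjusted p = 0.00329). Ighg1, the heavy chain of IgG1 (GRCm38 chromosome 12, 113325240 to 113330523, minus strand), was at 0.0620, 0.0165, 0.0151, 0.0931 and 0.0695 CPM at 1.5 months and at 0.185 to 34.5 CPM (median 0.469 CPM) at 10-12 months. A single library, replicate 5, stood far above the rest, the adjusted p was 0.00539, and it was 0.097 without that library. No fold is given, because the young libraries held few counts of this gene. Igkc, the kappa light chain, was highest in the same library and had a log2 fold change of 2.71 ± 0.71 (adjusted p = 0.0199; 0.101 at most when a library was left out). Ighm, the heavy chain of IgM, fell by 1.38 on the log2 scale (SE 0.35; adjusted p = 0.0173) and kept its call in 9 of the 11 leave-one-out fits. Igkc and Ighm were not called without both muscle-containing libraries (adjusted p = 0.0597 and 0.0989). Of 14 B and plasma cell genes 2 were called higher and 1 lower, with a median of 0.25, and of 15 T and NK cell genes none was called, with a median of 0.67.

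The genes with the largest rise were not of 1 pathway. Plin4, a coat protein of lipid droplets that glucocorticoids induce (GRCm38 chromosome 17, 56100591 to 56109803, minus strand, protein-coding), was at 10.4, 5.72, 9.71, 11.8 and 7.16 CPM at 1.5 months and at 15.4 to 194 CPM (median 48.1 CPM) at 10-12 months. Old libraries were all above young ones, and replicate 6 stood apart at 194 CPM (log2 fold change 2.86 ± 0.48; adjusted p = 0.000407). Of 20 genes of the glucocorticoid response 4 were called higher and none lower, with a list median of 0.29.

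Fkbp5, a chaperone partner of the glucocorticoid receptor, was at 28.2, 23.1, 28.8, 31.1 and 28.4 CPM at 1.5 months and at 29.9 to 113 CPM (median 49.8 CPM) at 10-12 months. Replicate 6 was again the highest, while the lowest old library lay within the young range (log2 fold change 0.99 ± 0.25; adjusted p = 0.0157; 0.063 at most when a library was left out). Hif3a, a hypoxia-inducible factor subunit, had a log2 fold change of 1.57 ± 0.42 and Zbtb16, a zinc finger repressor, 1.36 ± 0.39 (adjusted p = 0.0227 and 0.0308). Fkbp5, Hif3a and Zbtb16 all lost their call without replicate 6 at 10-12 months, and without some other libraries too. Fkbp5 was called in 9, Hif3a in 7 and Zbtb16 in 6 of the 11 leave-one-out fits. Without both muscle-containing libraries Plin4 was the 1 member called.

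Of 18 circadian clock genes 4 were called higher and 1 lower, with a list median of 0.29. Cry2, a repressor of the clock (GRCm38 chromosome 2, 92403646 to 92434043, minus strand, protein-coding), was at 109, 99.2, 96.3, 115 and 87.9 CPM at 1.5 months and at 124 to 138 CPM (median 131 CPM) at 10-12 months. The groups were separate by a small gap (log2 fold change 0.36 ± 0.07; adjusted p = 0.002). With the offset for GC content and length the log2 fold change of Cry2 was 0.23 (adjusted p = 0.00232). The repressors Cry1 and Per2 had log2 fold changes of 0.43 ± 0.12 and 0.67 ± 0.18 (adjusted p = 0.0257 and 0.0273), and neither held in each leave-one-out fit or without both muscle-containing libraries (adjusted p = 0.161 and 0.16). Nfil3, a repressor whose level cycles opposite to that of the Per genes and which was chosen after its values were seen, had one of -0.42 ± 0.13 (adjusted p = 0.0406) and was called in 3 of the 11 fits, with an adjusted p of 0.215 without those libraries. The sources used here do not give the hour at which the tissue was taken.

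**Figure D3:**
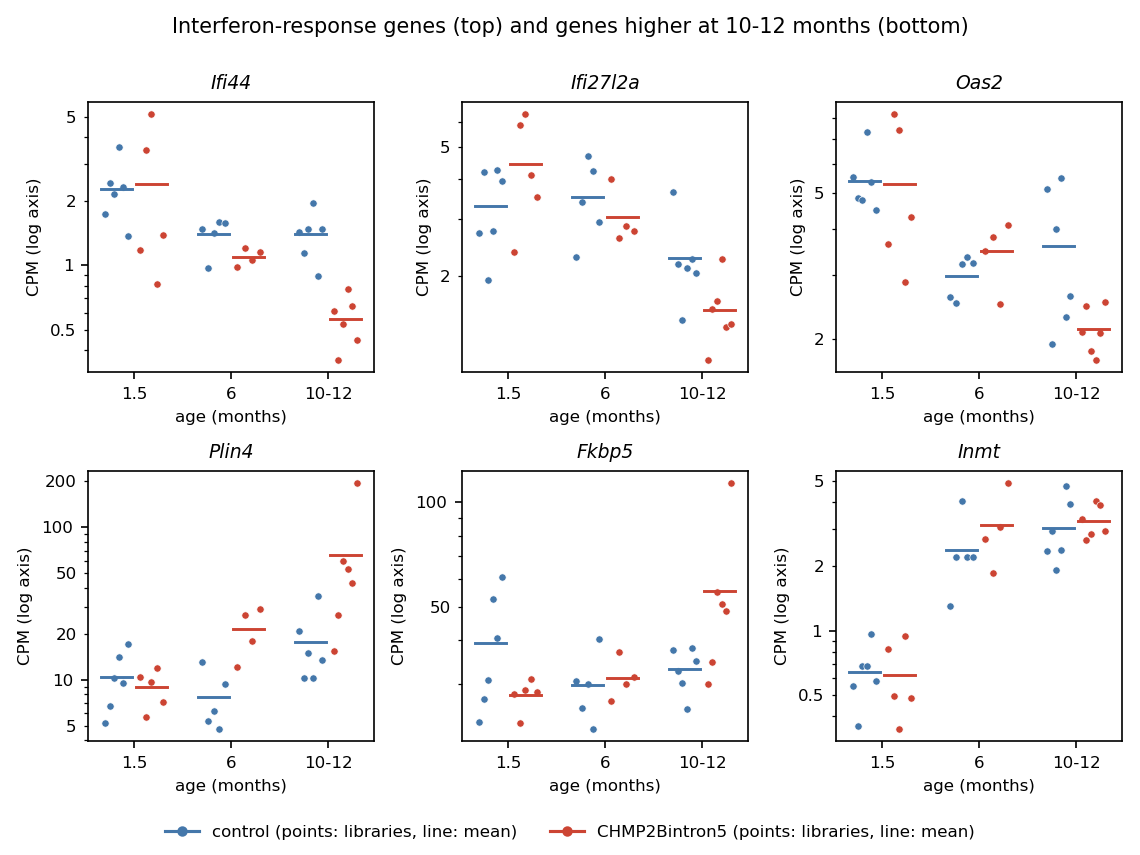
CPM on a log axis of Ifi44, Ifi27l2a and Oas2 (top) and of Plin4, Fkbp5 and Inmt (bottom) against age in months, with 1 point per library and a line at the group mean, for control (blue) and CHMP2Bintron5 (red). Top panels show the wide spread of the red points at 1.5 months, 0.820 to 5.15 CPM for Ifi44, and bottom panels the single high library at 10-12 months for Plin4 (194 CPM) and Fkbp5 (113 CPM).

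Further genes among those with the largest rise were described singly. Inmt, a methyltransferase of small indoles and amines, was at 0.827, 0.496, 0.348, 0.950 and 0.486 CPM at 1.5 months and at 2.66 to 4.04 CPM (median 3.12 CPM) at 10-12 months, 5.27-fold higher with separate groups (log2 fold change 2.40 ± 0.30; adjusted p = 7.55e-06). Apela, a peptide ligand of the apelin receptor, was at 0.413, 0.413, 0.409, 0.503 and 0.417 CPM at 1.5 months and at 0.841 to 2.29 CPM (median 1.60 CPM) at 10-12 months, also separate (log2 fold change 1.89 ± 0.25; adjusted p = 1.78e-05). Tmc3, a membrane protein of the TMC family, had a log2 fold change of 2.31 ± 0.32 (adjusted p = 3.32e-05).

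Etnppl, an astrocyte enzyme that breaks down phosphoethanolamine, was at 10.1, 7.83, 9.77, 9.81 and 8.20 CPM at 1.5 months and at 20.1 to 90.9 CPM (median 31.3 CPM) at 10-12 months, with replicate 6 again the highest library (log2 fold change 2.14 ± 0.37; adjusted p = 0.000487). Fmo2, a flavin-containing monooxygenase, and Xdh, xanthine dehydrogenase, were 3.78-fold and 2.21-fold higher (adjusted p = 0.000464 and 0.000715), and both were highest in that library too. Ppl and Vill, which bind the cytoskeleton, had log2 fold changes of 1.66 ± 0.26 and 1.43 ± 0.20 (adjusted p = 0.000159 and 4.32e-05).

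Of 36 synapse genes 1 was called higher and none lower (median 0.04), and of 20 motor neuron genes 1 higher and none lower (median 0.02, or -0.12 with the offset for GC content and length). Over all genes 3.12% were called higher, so these counts do not set the lists apart. Of 13 general neuron genes 3, the neurofilament subunits, were called lower and none higher, against 3.47% of all genes called lower. The median of that list was 0.09, with 7 members positive and 6 negative, so the list as a whole was not lower.

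Nefm, the medium subunit, was at 1784, 1894, 2430, 1923 and 1827 CPM at 1.5 months and at 1249 to 1573 CPM (median 1397 CPM) at 10-12 months. Young replicate 3 was the highest and the groups did not overlap (log2 fold change -0.49 ± 0.09; adjusted p = 0.0014). Nefl had a log2 fold change of -0.32 ± 0.08 (adjusted p = 0.0157; lost without young replicate 3) and Nefh, the heavy subunit, -0.32 ± 0.10 (adjusted p = 0.0396; called in 4 of 11 leave-one-out fits). The axonal motor Kif1a was higher, by 0.24 ± 0.06 on the log2 scale (adjusted p = 0.0109), but was at 0.04 and not called with the offset for GC content and length (adjusted p = 0.621). Without both muscle-containing libraries Nefl, Nefh and Kif1a were not called (adjusted p = 0.0785, 0.193 and 0.0539).

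Of 14 astrocyte genes 2 were called lower and none higher, against 3.47% of all genes called lower, and 1 held in each leave-one-out fit. The astrocyte median was -0.03, with 6 members positive and 8 negative, and the reactive astrocyte list was split. Gfap, the intermediate filament that rises in reactive astrocytes, was at 2490, 2631, 2657, 2574 and 2331 CPM at 1.5 months and at 1656 to 2068 CPM (median 1765 CPM) at 10-12 months, lower without overlap (log2 fold change -0.49 ± 0.10; adjusted p = 0.0028). Aqp4, the water channel of astrocyte endfeet, had a log2 fold change of -0.68 ± 0.17 (adjusted p = 0.0136; lost without young replicate 3), and Ptx3, a secreted pentraxin, was 2-fold lower (adjusted p = 0.0013). Of 22 reactive astrocyte genes 2 were called higher and 2 lower (median -0.14), and Amigo2, an adhesion molecule, was one of the higher ones (0.30 ± 0.06; adjusted p = 0.00282).

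Endosomal and lysosomal lists, the machinery that CHMP2B belongs to, are given against the 6.59% of all genes called in either direction. Of 21 ESCRT genes 1 was called lower (Chmp5) and none higher, with a median of -0.06, and of 22 autophagy genes 2 were called higher (Gabarapl1 and Ulk1) and none lower. With the offset for GC content and length these 3 genes were not called (adjusted p = 0.198, 0.631 and 0.264). Gabarapl1 was called in 8 and Ulk1 in 2 of the 11 leave-one-out fits. Of 35 lysosome genes 2 were called in each direction. Npc2, which carries cholesterol out of the lysosome, had a log2 fold change of -0.42 ± 0.07 (adjusted p = 0.000346). Atp6v0d2, a proton pump subunit of macrophages (GRCm38 chromosome 4, 19876841 to 19922605, minus strand, protein-coding), was at 0.331, 0.512, 0.424, 0.205 and 0.370 CPM at 1.5 months and at 0.745 to 1.73 CPM (median 1.31 CPM) at 10-12 months. The groups did not overlap (log2 fold change 1.71 ± 0.48; adjusted p = 0.0286), and the call held in 6 of the 11 leave-one-out fits and not without both muscle-containing libraries (adjusted p = 0.0987). None of the 14 skeletal muscle, 11 sensory neuron, 13 ependymal or 10 neutrophil genes tested was called.

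The same ages were then compared in control cord, which shares no library with the transgenic comparison. In controls 837 genes (4.18%) were called, 335 (1.67%) higher and 502 (2.51%) lower. Of the 1318 transgenic calls 377 were also called in controls, all with the same sign, which is 28.6% of the transgenic and 45% of the control calls. Counting every transgenic call, 1235 (93.7%) had the same sign in controls, against 69.4% of all tested genes. The sterol, myelin and collagen lists had like counts in both genotypes. For cholesterol synthesis each had 19 lower calls, with medians of -0.53 in transgenic and -0.61 in control cord. For oligodendrocytes each had 10, with medians of -0.51 and -0.43, and for matrix 9 and 10, with -0.26 and -0.32. Cyp51 had a log2 fold change of -0.86 ± 0.09 in controls (adjusted p = 7.74e-08), Mal -1.31 ± 0.11 (adjusted p = 2.67e-09) and Pmp22 -1.46 ± 0.18 (adjusted p = 2.48e-06).

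For other lists the values differed between genotypes. Interferon genes had 1 higher and no lower call in controls and a median of -0.15. The disease-associated microglial list had 4 higher and 1 lower call in controls and a median of 0.26, and the glucocorticoid list 1 lower call and a median of -0.14. Gpnmb and Lgals3, which rose in transgenic cord, rose in controls too, by 2.09 ± 0.385 and 1.15 ± 0.20 on the log2 scale (adjusted p = 0.000908 and 0.000342). In the test of the difference between the age effects of the genotypes, 2 of 20015 genes (0.00999%) were called, both lower, Pdcd1 and Fcrls, while 1122 genes (5.61%) had an unadjusted p under 0.05. Among the latter were 13 of the 24 disease-associated, 9 of the 16 homeostatic and 10 of the 28 interferon genes, none of which but Fcrls passed the adjustment.

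Fcrls had a log2 fold change of -0.58 ± 0.21 in controls (adjusted p = 0.115), with 2.71 to 5.84 CPM at 1.5 months and 1.73 to 3.21 CPM at 10-12 months. The difference was -1.69 ± 0.30 (adjusted p = 0.0444), and it was called in 6 of 23 fits that left out 1 library each (adjusted p up to 0.118). Pdcd1, the inhibitory receptor PD-1 (GRCm38 chromosome 1, 94038305 to 94052553, minus strand, protein-coding), was at 1.43, 1.50, 1.71, 1.28 and 0.764 CPM in transgenic cord at 1.5 months and at 0.630 to 1.17 CPM (median 0.713 CPM) at 10-12 months, which overlap and were not called (log2 fold change -0.75 ± 0.30; adjusted p = 0.119). In controls it rose from 0.0360 to 0.184 CPM to 0.210 to 0.946 CPM (log2 fold change 2.16 ± 0.36; adjusted p = 0.00022). Young control libraries held few counts of Pdcd1, so the sizes of this rise and of the difference between genotypes are uncertain. The difference of -2.92 ± 0.47 (adjusted p = 0.0135) was called in 22 of the 23 fits, the exception being the one without control replicate 4 at 1.5 months (adjusted p = 0.0503). Without both muscle-containing libraries neither difference was called (adjusted p = 0.102 for Fcrls and 0.0991 for Pdcd1).

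**Figure D4:**
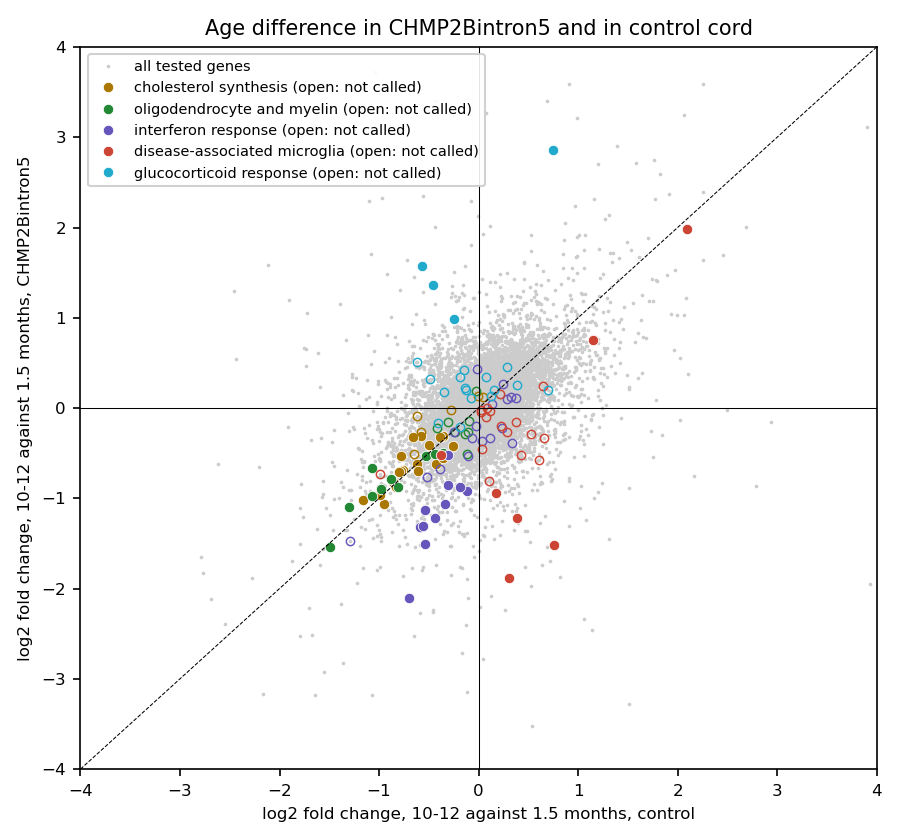
Log2 fold change between 10-12 and 1.5 months in control cord (horizontal) and CHMP2Bintron5 cord (vertical) for all tested genes (grey), except 16 beyond the axis limit of 4, with 5 gene lists in colour, filled where called in CHMP2Bintron5. Cholesterol and myelin genes lie near the dashed line of equal change, and the called interferon and disease-associated microglial genes below it, as for Itgax with 0.76 ± 0.38 and -1.51.

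Libraries at 6 months divide the span into 2 intervals. Between 1.5 and 6 months 959 genes (4.79%) were called in transgenic cord, 519 of them (2.59%) higher, and between 6 and 10-12 months 69 genes (0.345%), 7 of them (0.035%) higher. These 2 comparisons share libraries with the main one and with each other. Replicates 2 and 3 at 6 months held transcripts of sensory ganglia, and without them the numbers were 87 and 0, with 2 libraries left at that age. In that reduced fit Mal had a log2 fold change of -1.07 ± 0.17 (SE) from 1.5 to 6 months (adjusted p = 0.00211) and -0.04 ± 0.15 from 6 to 10-12 months (adjusted p = 0.999).

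Fcrls had values of -2.40 ± 0.34 (adjusted p = 0.000661) and 0.12 ± 0.31 (adjusted p = 0.999). For Mal and Fcrls the first interval held the called change. Gpnmb had values of 0.15 ± 0.49 and 1.82 ± 0.53 (adjusted p = 0.888 and 0.999), and Plin4 of 1.18 ± 0.60 and 1.66 ± 0.67 (adjusted p = 0.367 and 0.999), with neither interval called in the reduced fit. With all libraries at 6 months Gpnmb had values of 0.09 ± 0.40 and 1.89 ± 0.40 (adjusted p = 0.897 and 0.0246), so the second interval was called. Whether any gene changed more in one interval than in the other was not tested.

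**Figure D5:**
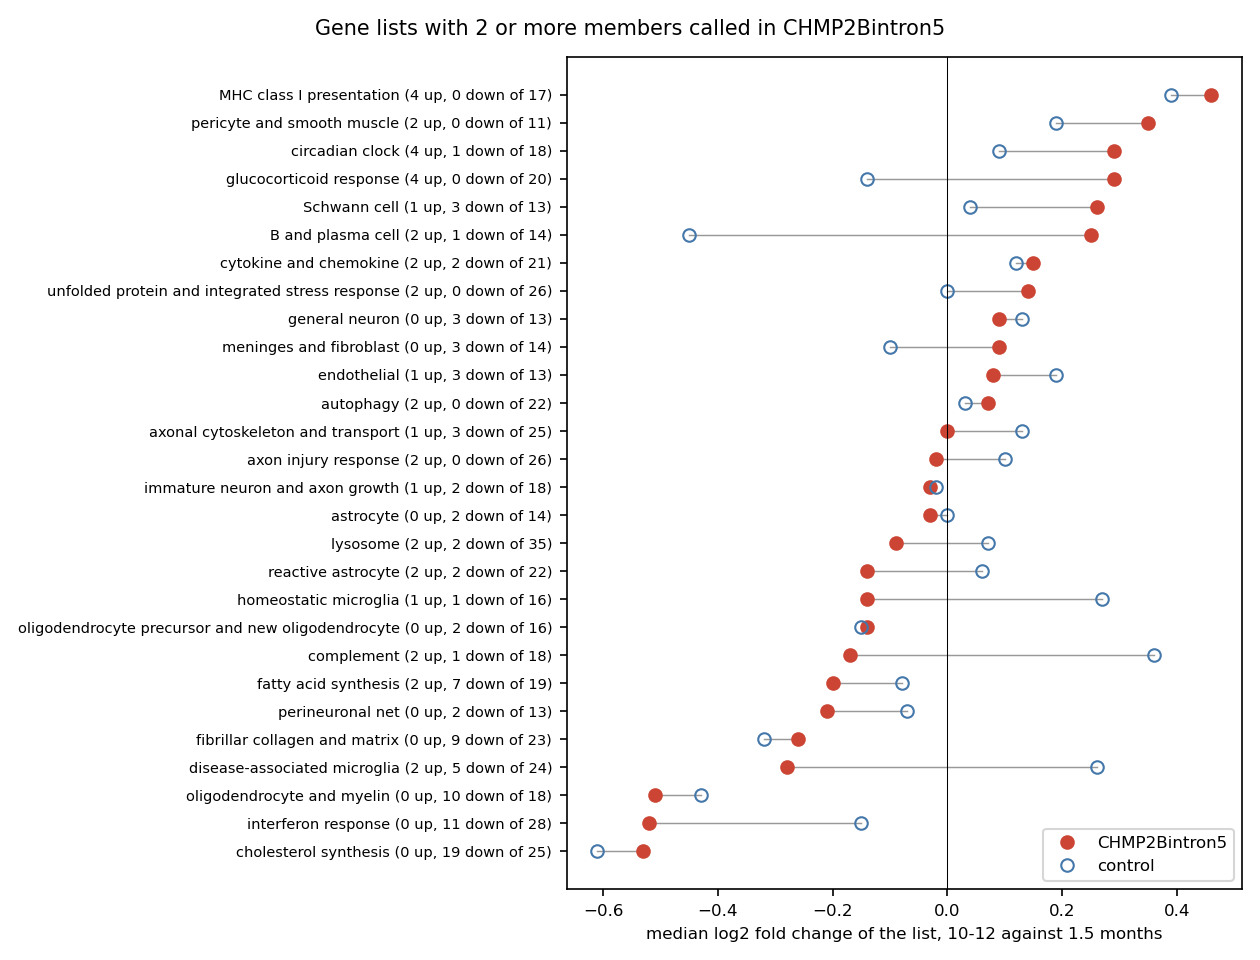
Median log2 fold change between 10-12 and 1.5 months of the 28 gene lists with at least 2 members called in CHMP2Bintron5 cord, for CHMP2Bintron5 (filled red) and control (open blue), with the numbers called higher and lower in CHMP2Bintron5 and the number tested. Cholesterol synthesis (-0.53 and -0.61 in control) and myelin (-0.51 and -0.43) lie low in both, while disease-associated microglia (-0.28 and 0.26), complement (-0.17 and 0.36) and the glucocorticoid response (0.29 and -0.14) lie on opposite sides of 0.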

How the data were processed

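The authors deposited 1 table of raw counts per Ensembl gene for 32 libraries. Per the labels' protocols, Trizol and column purification gave total RNA, of which 500 ng went into each stranded poly(A) library. The submitters' processing notes name bcl2fastq 2.17.1.14, TopHat2 2.0.14, Bowtie2 2.1.0, HTSeq 0.6.1 and mm10. For the annotation release, the strand setting and multiply mapped reads, the choice is not given in the sources used, so genes with close copies or an antisense partner are uncertain. Of 45706 identifiers, 563 had no symbol in the GRCm38 annotation used for names and positions (0.079% of counts).

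From these counts, edgeR 4.0.16 removed low genes (filterByExpr, minimum count 10, minimum total 15), leaving 20015, scaled libraries by TMM and fitted a quasi-likelihood model with 1 term per genotype and age to all 32 libraries. The 6 groups thus shared 1 estimate of the spread. Tests were two-sided, p was corrected with the Benjamini-Hochberg method across the 20015 genes, and those under 0.05 were called. Log2 fold changes are given ± SE of that model. Library measures were compared by exact permutation over all divisions of the libraries. Replicates of a group differed by more than sampling noise. The fitting code was tested on simulated data.

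Lists are described by counts of called members and medians, with no test. Genes named are Chmp2b, Thy1 and Chrna2, the 15 called genes in each direction with the largest change (mean of at least 1 CPM, groups not overlapping, gene models without a name left out), from which a part is described, up to 4 called members of each of 45 lists, and genes called in the difference of age effects. Some genes that this covers are not reported here. Those named outside it include Mbp, Trem2, Tyrobp, Cx3cr1, P2ry12, Nfil3, Lgals3, Isg15, Oas1a, Rsad2 and Trim30a. The comparison, the lists and the tests were chosen with earlier results of these data known. Alternatives covered DESeq2 1.42.0, limma 3.58.1 (voom with sample weights), other scalings and filters, a GC and length offset, the 11 libraries alone, a replicate block, and leaving out libraries. Fits without the ganglion-containing libraries, or without the 3 libraries of high GC slope, were added after seeing the data. Sequences are from RefSeq (GRCm38.p6).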

Additional observations from a re-analysis of the deposited data

Results flagged for a closer look

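A library was set apart where its gap to the nearest library of its group exceeded the Dixon limit, in 190 groups of values in all. In these groups 23 libraries were found apart. The limit is set for 1 in 20 groups of independent, normally distributed values. Values here were CPM of genes chosen from these data, some of which move together, so that rate does not apply. Whether 23 is more than chance gives was not tested. At 1.5 months replicate 4 was apart for 6 genes. It was high for Mbp (13300 CPM, nearest 9230 CPM), Lgals3 (12.3 CPM, nearest 10.6 CPM), Tmem119 (18.6 CPM, nearest 12 CPM) and Tap2 (17.7 CPM, nearest 9.17 CPM). It was also high for Igha (0.987 CPM, nearest 0.331 CPM) and Apela (0.503 CPM, nearest 0.417 CPM). Replicate 1 was low for Gpr17 (47.9 CPM, nearest 71.4 CPM). Replicate 3 was low for H2-D1 (250 CPM, nearest 297 CPM) and high for Nefm (2430 CPM, nearest 1920 CPM) and for the summed muscle genes (550 CPM, nearest 175 CPM).

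At 10-12 months replicate 6 was apart and high for 6 genes that rose. It held 194 CPM of Plin4 (nearest 59.9 CPM), 113 CPM of Fkbp5 (nearest 55.1 CPM) and 68.3 CPM of Hif3a (nearest 20.3 CPM). It held 90.9 CPM of Etnppl (nearest 42.7 CPM), 38.2 CPM of Fmo2 (nearest 17.6 CPM) and 35.3 CPM of Xdh (nearest 19.4 CPM). Replicate 5 was high for 2 immunoglobulin genes, Ighg1 (34.5 CPM, nearest 0.814 CPM) and Igkc (49.7 CPM, nearest 10.5 CPM). Replicate 3 was high for the summed muscle genes (896 CPM, nearest 153 CPM). The rest were Msmo1, low in replicate 4 (86.8 CPM, nearest 102 CPM), Col4a1, high in replicate 4 (85.4 CPM, nearest 70.5 CPM), Mog, high in replicate 2 (225 CPM, nearest 183 CPM), and Ccl6, low in replicate 1 (4.89 CPM, nearest 5.96 CPM).

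The age effect differed between genotypes for 2 genes by the interaction test, Fcrls (difference of log2 fold changes -1.69) and Pdcd1 (-2.92).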

How the results depend on the processing

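No called gene described changed sign with the GC and length offset, without the muscle-containing libraries or in a leave-one-out fit. Of those not called, Thy1 and Chrna2 did. In all, 65 of the 111 called genes named by the rule were called in each of 11 leave-one-out fits, 110 by DESeq2, 98 with the GC and length offset, 63 without both muscle-containing libraries and 63 with a replicate block. Counts of calls were less stable, and where no reason is given the cause was not tested. For 10-12 against 1.5 months in CHMP2Bintron5 the 1318 calls became 5234 with voom, 1978 with the GC offset, 866 with no low count filter, 777 in the 11 libraries alone and 440 without both muscle-containing libraries, the last 2 with fewer samples. By DESeq2 the number was 1927. The share of calls that were higher was 47.3%, against 39.4% with upper quartile scaling, 36.4% with no low count filter, 59.7% with voom, and 35.8% to 58.4% leaving out 1 library, so the balance of directions turned with the setting. Leaving out 1 library gave 530 to 4133. Correlations of same-numbered libraries ran from -0.429 to 0.621 and those of unlike-numbered ones from -0.616 to 0.65. These values do not show whether replicate numbers pair the samples. A replicate block gave 309 calls. In controls 837 calls became 1271 (DESeq2), 1978 (voom), 2036 (GC offset) and 540 to 1037 leaving out 1 library. The difference of age effects gave 2 calls, against 21 (DESeq2), 16 (voom), 13 (GC offset), 0 (without muscle-containing libraries), 1 (without ganglion-containing libraries), 4 (without 3 libraries of high GC slope) and 0 to 4 leaving out 1 library. For 6 against 1.5 months 959 calls became 1713 (DESeq2), 6342 (voom), 358 (without muscle-containing libraries), 87 (without ganglion-containing libraries) and 4793 (without high GC slope). For 10-12 against 6 months 69 became 110 (DESeq2), 115 (voom), 39 (a minimum of 1 CPM), 107 (GC offset), 36 (without muscle-containing libraries), 0 (without ganglion-containing libraries) and 30 (without high GC slope). Genes under about 1 CPM, such as Ighg1, Cst7 and Atp6v0d2 in 1 age and Pdcd1 in control cord, rest on few counts.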
